A study of Mus musculus with 6 samples.

Results

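The mitochondrial respiratory chain genes were followed in isolated pancreatic islets of hIAPP_Tg mice and of wild-type mice. The members are the genes whose symbol starts with Nduf, Sdha, Sdhb, Sdhc, Sdhd, Uqcr, Cox4 to Cox8 or Atp5, together with Cyc1 and Cycs. The rule used names and no measured values. It took in 190 of the 45037 probe sets tested and 96 of the 18193 named genes, and each gene was represented by its brightest probe set, judged by the average of the 6 arrays.

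RNA of 1 mouse was hybridised to each of 6 Affymetrix arrays, 3 from hIAPP_Tg mice (replicates 4, 5 and 6) and 3 from wild-type mice (replicates 1, 2 and 3). The transgene of the hIAPP_Tg mice is human islet amyloid polypeptide, a beta-cell hormone that forms amyloid in its human form, behind an insulin promoter. It is thus driven in beta cells, while whole islets were measured. All mice were labelled 12 weeks old and had standard chow. FVB/N-Tg(Ins2-IAPP)RFHSoel/J was entered as the strain of both genotypes. Whether the wild-type mice were littermates and how many transgene copies the others carried is not stated, and mouse probes give no check of a human transcript. All levels are RMA values on the log2 scale, and per-array values are given in the order of the replicate numbers within each genotype.

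The respiratory chain passes electrons from NADH (complex I) and succinate (complex II) through ubiquinone to complex III, then through cytochrome c to complex IV, which reduces oxygen. Complexes I, III and IV pump protons across the inner mitochondrial membrane, and ATP synthase uses the gradient to make ATP. In beta cells, ATP from glucose oxidation closes ATP-sensitive potassium channels, which starts insulin release. All members are encoded in the nucleus, and the transcription factors NRF1, GABPA (also called NRF-2) and YY1 are known to act on many of them.

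To show those recognition sequences in the members' own promoters, the RefSeq windows of GRCm38.p6, from 250 bases before to 50 after each start, were searched on both strands. A window was held for 79 of the 96 members. The NRF1 palindrome, in capitals in the lines for Cox6a1, Atp5k and Atp5g2 below, was present in 6 of these genes (7.59%), against 1.07% of all 27025 genes with a window. The GABPA letters CCGGAAGT were present in 5 (6.33%, against 4.31%), and the YY1 letters AAGATGGC in 10 (12.7%, against 3.19%), in most of these just after the start. No member held more than 1 of these motifs. A match is a description of the letters and not a site. The following stretches of 60 bases, all before the start, show where the motif lies in 5 members, with the motif in capitals: the NRF1 palindrome in Cox6a1 (chr5:115349086-115349145, minus strand), Atp5k (chr5:108434415-108434474, minus strand) and Atp5g2 (chr15:102671055-102671114, minus strand), and the GABPA letters in Atp5h (chr11:115419925-115419984, minus strand, where they are read as ACTTCCGG) and Uqcr11 (chr10:80406854-80406913, minus strand).
Cox6a1: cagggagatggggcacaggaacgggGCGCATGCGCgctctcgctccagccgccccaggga
Atp5k: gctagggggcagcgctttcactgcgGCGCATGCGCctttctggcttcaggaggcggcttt
Atp5g2: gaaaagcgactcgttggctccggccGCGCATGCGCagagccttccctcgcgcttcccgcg
Atp5h: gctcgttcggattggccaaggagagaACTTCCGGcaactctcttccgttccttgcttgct
Uqcr11: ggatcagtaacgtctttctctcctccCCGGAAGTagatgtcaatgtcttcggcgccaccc

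Most respiratory chain genes stood slightly higher in hIAPP_Tg than in wild-type islets, and none differed enough to pass the test. The median log2 difference over the 96 genes, hIAPP_Tg minus wild type, was 0.10, a ratio of 1.07, against 0 over all named genes. Of the 96, 79 lay above 0, 2 at 0 and 15 below, while over all named genes 48% lay above 0 and 40.5% below. The differences ran from -0.47 for Cox8c to 0.33 for Cox5a, and 84 of the 96 were 0.20 or less in size. By class the median was 0.13 for complex I, 0.15 for complex II, 0.13 for complex III with cytochrome c, 0.033 for complex IV, 0.10 for ATP synthase and 0.033 for assembly factors and relatives. Whether the classes differ from each other was not tested.

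**Figure D1:**
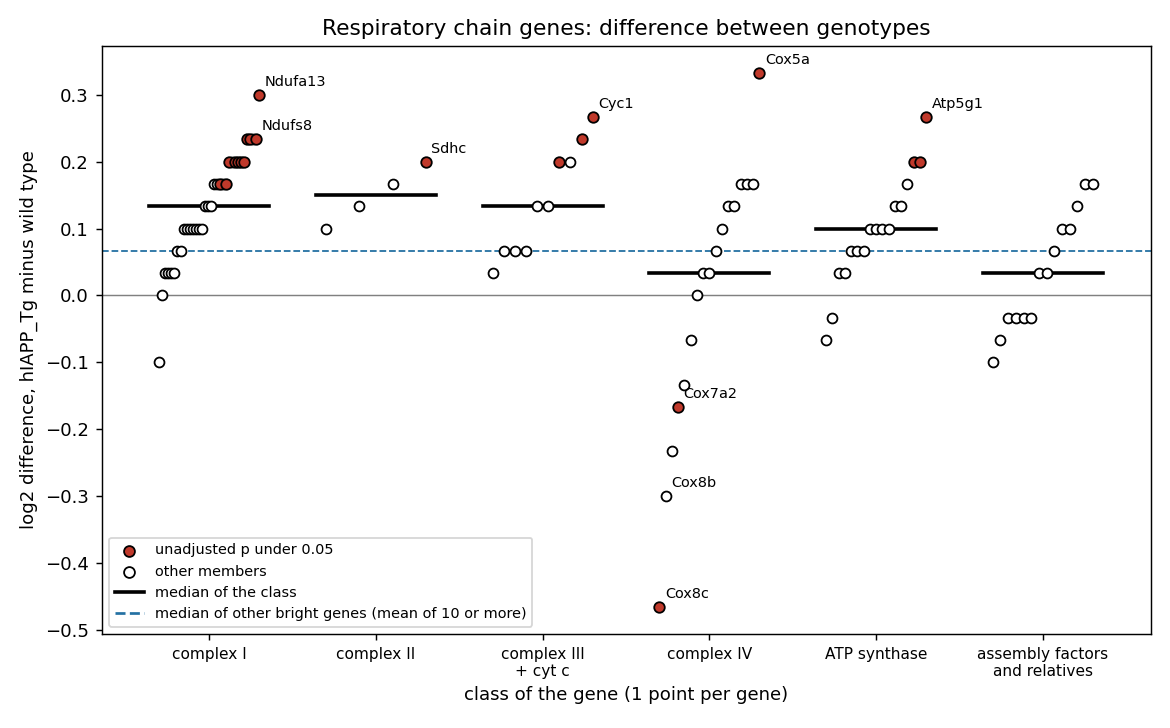
Log2 difference (hIAPP_Tg minus wild type, vertical axis) of each of the 96 respiratory chain genes by class, with 1 point per gene, red where the unadjusted limma p was under 0.05, a black line at the median of the class and a dashed line at the median of the other bright genes (0.067). All genes of complexes II and III lie above 0, while complex IV spans -0.47 to 0.33.

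In limma with Benjamini-Hochberg adjustment over all probe sets, 0 of the 96 genes passed an adjusted p of 0.05, and 0.0289% of all probe sets did. The smallest adjusted p among the genes was 0.498, for Ndufs8. At an unadjusted p under 0.05, 19 genes were higher (19.8%) and 2 were lower, against 5.02% higher and 3.45% lower among all named genes. Of the 89 members above the array median of 5.7 on every array, 18 were higher (20.2%). The higher genes lay mostly outside the plain probe sets, which carry the suffix _at. Of the 47 members read by such a probe set 2 were higher (4.26%, against 4.5% of all named genes so read). With _a_at, whose probes are shared by transcripts of 1 gene, 10 of 28 were higher (35.7%, against 6.57%). With _s_at, whose probes can be shared between genes, 4 of 14 were (28.6%, against 6.81%), and with _x_at, whose probes can also bind unrelated transcripts, 3 of 7 (42.9%, against 8.78%). The part of the probe design in the differences was not tested. An ordinary linear model without moderation gave 11 higher (11.5%, against 4.09% of all named genes) and 2 lower and also 0 past adjustment. The 3 hIAPP_Tg values all exceeded the 3 wild-type values for 14 genes and all lay under them for 2, against 4.49% and 3.22% of all named genes. Except in Ndufs8 and Sdhc, the gap between the genotypes of these genes was 0.1, a single step of the rounding. Leaving out hIAPP_Tg replicate 5 turned the count of 19 into 9 (9.38%, against 5.05% of all named genes). Leaving out wild_type replicate 3 also gave 9 (9.38%, against 3.91%), and leaving out wild_type replicate 2 gave 31 (32.3%, against 7.09%).

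The members are mostly bright, and bright genes as a whole stood higher in hIAPP_Tg islets. Of the 96 members, 66 had a mean of at least 10. Among the 1376 other named genes with a mean of at least 10, a limit chosen after the values were seen, the median difference was 0.067, 70.1% lay above 0 and 10.1% were higher at an unadjusted p under 0.05. The 66 bright members had a median of 0.10, 60 lay above 0, 5 below, 17 were higher and 1 lower at that p, and 13 stood apart upward and 1 downward. The shares among the other bright genes were 21.7% below 0, 2.69% lower at that p, 9.96% apart upward and 2.18% apart downward. After each array was centred on those other bright genes, the median over the 96 members was 0.039. At that p 3 members were then higher (3.12%, against 2.44% of all named genes). With quantile normalization 5 were (5.21%, against 4.05%).

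**Figure D2:**
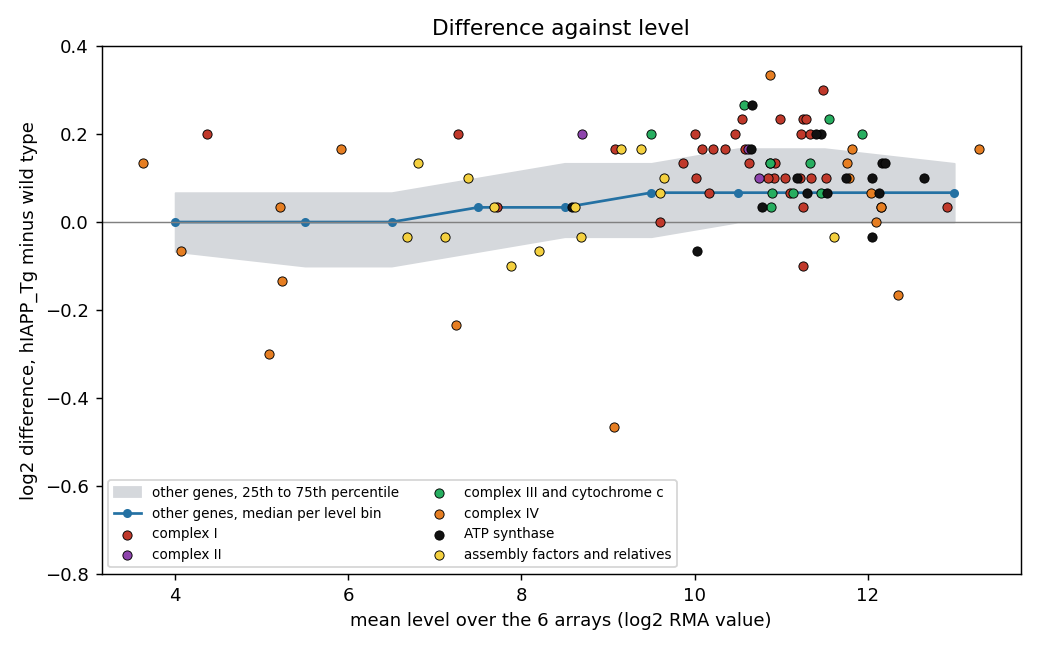
Log2 difference (hIAPP_Tg minus wild type, vertical axis) against the mean level over the 6 arrays (log2 RMA value, horizontal axis) for the 96 respiratory chain genes, coloured by class. The blue line and grey band give the median and the 25th to 75th percentile of the other genes per level bin, and the median of the other genes is 0 below a level of 7 and 0.067 from 9 upward.

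The wild-type arrays differed among themselves by more than the genotypes did, and the hIAPP_Tg arrays by less. The mean over the 96 genes was 10.14, 10.19 and 10.15 on the hIAPP_Tg arrays and 10.04, 10.15 and 10.02 on the wild-type arrays. Wild_type replicate 2 therefore lay among the hIAPP_Tg arrays, and the genotypes overlapped. On that array 61 members exceeded their own mean over the 6 arrays, compared with 58, 77 and 60 on the hIAPP_Tg arrays and 16 and 12 on wild_type replicates 1 and 3. The mean over complex I did not overlap, at 10.49, 10.54 and 10.50 in hIAPP_Tg against 10.37, 10.43 and 10.33 in wild-type islets. That of complex III with cytochrome c stood at 11.05, 11.14 and 11.06 in hIAPP_Tg and at 10.92, 11.03 and 10.88 in wild-type islets, also without overlap, while complex II touched at 10.25 and complex IV, ATP synthase and the assembly factors overlapped.

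**Figure D3:**
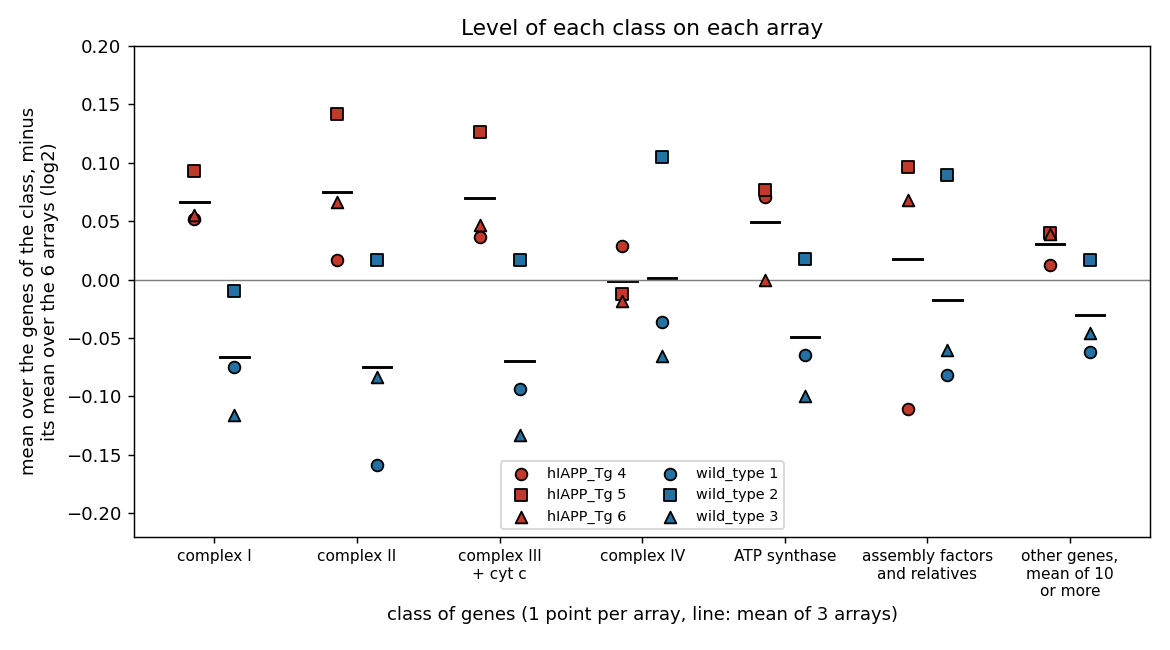
Mean over the genes of each class on each array, minus its mean over the 6 arrays (log2, vertical axis), with hIAPP_Tg arrays in red on the left, wild-type arrays in blue on the right and a line at the mean of 3 arrays. Wild_type replicate 2 lies above the other wild-type arrays in every class drawn, and in complex I all 3 hIAPP_Tg arrays lie above it.

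Markers of other cells differed between the genotypes or between single arrays. The mean over 18 macrophage markers, all 18 measured, was 7.83 to 7.99 on the hIAPP_Tg arrays and 6.84 to 7.01 on the wild-type arrays, with 17 of 18 above 0 and 2 at a mean under 5.7. That over 19 acinar markers, of 24 listed, was 11.58, 9.14 and 10.59 on the hIAPP_Tg arrays and 10.40, 11.73 and 12.12 on the wild-type arrays. The array lowest in acinar markers, hIAPP_Tg replicate 5, was the highest in the respiratory chain genes, and the array highest in acinar markers, wild_type replicate 3, was the lowest. Wild_type replicate 1 was low in both and wild_type replicate 2 high in both, so the other arrays did not follow that order. With the acinar mean as a covariate the median over the 96 genes was 0.093. At an unadjusted p under 0.05, 5 were then higher (5.21%, against 4.41% of all named genes) and 1 was lower. The beta-cell markers measured, 8 of 12 listed, had means of 12.70 to 12.93 in hIAPP_Tg and 12.89 to 13.04 in wild-type islets. Without overlap between genotypes were also the means over 5 duct markers, of 7 listed (8.38 to 8.54 in hIAPP_Tg, 8.28 to 8.32 in wild type). The same held for 6 endothelial markers (8.37 to 8.45 in hIAPP_Tg, 8.48 to 8.57 in wild type) and 3 delta-cell markers (11.17 to 11.30 in hIAPP_Tg, 11.33 to 11.37 in wild type). The single markers of these lists did not move together. Of the duct markers 3 lay above 0 and 2 at 0, with 2 at a mean under 5.7. Of the endothelial markers 3 lay at 0 and 3 below, with 1 at a mean under 5.7. Of the delta-cell markers 1 lay above 0 (Rbp4, 0.17) and 2 below. The part of these other cell types in the differences was not tested, and a change in the number of cells of a type cannot be told apart from a change in RNA per cell.

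**Figure D4:**
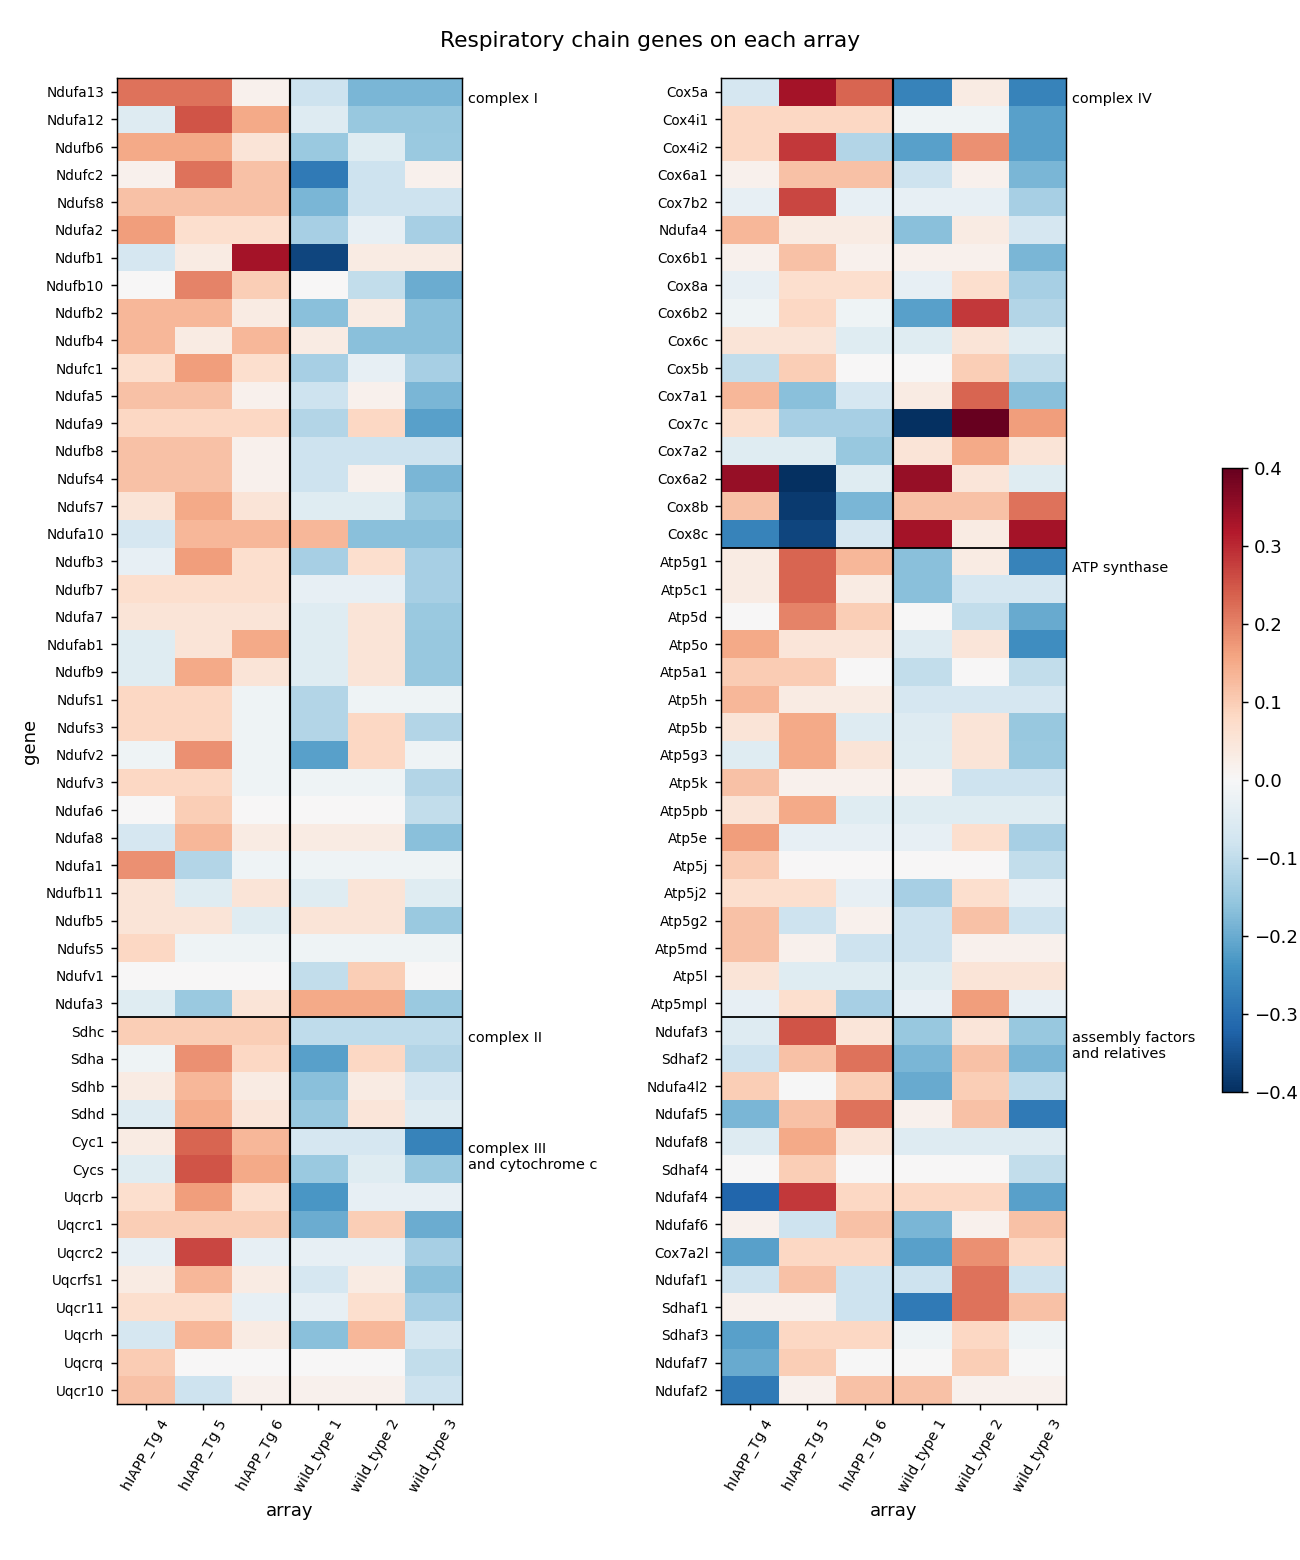
Log2 value of each of the 96 respiratory chain genes on each array (columns, hIAPP_Tg replicates 4 to 6 left of wild_type replicates 1 to 3), minus the mean of the gene over the 6 arrays, with red above and blue below and the colour limited at 0.4 in size. Genes are grouped by class and ordered by difference, and wild_type replicates 1 and 3 are mostly blue while wild_type replicate 2 is mixed.

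Complex I, the NADH dehydrogenase and the largest complex of the chain, had separated genotypes in 8 of its 34 genes. Of these 34, 32 lay above 0, 1 at 0 and 1 below. At an unadjusted p under 0.05, 11 were higher (32.4%, against 5.02% of all named genes and 10.1% of the other bright ones) and 0 lower. Ndufb4, among these 11, was read by a dim probe set, at 4.5, 4.4 and 4.5 in hIAPP_Tg and 4.4, 4.2 and 4.2 in wild-type islets. Those values lie under the array median of 5.7, where detection is uncertain. Brighter probe sets named for Ndufb4 and its copies are given under the other observations. The 8 genes with hIAPP_Tg apart upward make 23.5%, against 4.49% and 9.96%. Ndufs8, a core subunit that holds iron-sulfur clusters, stood at 11.1 on all 3 hIAPP_Tg arrays, against 10.8, 10.9 and 10.9 on the wild-type arrays (log2 difference 0.23, SE 0.057, limma adjusted p = 0.498). Its genotypes were separated by a gap of 0.2, yet its other 5 probe sets differed by 0 to 0.23, and the one that stands for it ends in _x_at, as do those of Ndufa12 and Ndufb2, also among the 11. Ndufs7, another iron-sulfur core subunit, stood at 10.4, 10.5 and 10.4 in hIAPP_Tg and at 10.3, 10.3 and 10.2 in wild-type islets. The separation of Ndufs7 was thus a single step of the rounding, as in the other separated genes of the complex except Ndufs8.

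Accessory subunits surround the core of complex I and are needed for its assembly and stability. Ndufa13, an accessory subunit also known as GRIM-19, had the largest difference of the complex, at 11.7, 11.7 and 11.5 in hIAPP_Tg against 11.4, 11.3 and 11.3 in wild-type islets (0.30, SE 0.078, limma adjusted p = 0.503). Ndufb6, a subunit of the membrane arm, stood at 10.7, 10.7 and 10.6 in hIAPP_Tg and at 10.4, 10.5 and 10.4 in wild-type islets (0.23, SE 0.063, limma adjusted p = 0.503). In both genes the lowest hIAPP_Tg array lay above the highest wild-type array by 0.1. Ndufa2, an accessory subunit of the matrix arm, stood at 11.4, 11.3 and 11.3 in hIAPP_Tg and 11.1, 11.2 and 11.1 in wild-type islets (0.20, SE 0.063, limma adjusted p = 0.552), again without overlap. Ndufa3, of the membrane arm, was the gene of the complex below 0, at 11.2, 11.1 and 11.3 in hIAPP_Tg and 11.4, 11.4 and 11.1 in wild-type islets (-0.10). Its 3 probe sets all lay below 0, from -0.17 to -0.067, and its genotypes overlapped.

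The choice of probe set mattered for the electron entry of complex I. Ndufv1, the core subunit that binds flavin and takes electrons from NADH, stood at 9.6 on each hIAPP_Tg array and at 9.5, 9.7 and 9.6 on the wild-type arrays, a difference of 0. Its other 2 probe sets, less bright, differed by 0.20 and 0.27, both at an unadjusted p under 0.05 and with a limma adjusted p of 0.503. For Ndufv2, its partner subunit, the brightest probe set gave 0.10 and the others 0.30 and 0.27. Ndufs1, the largest core subunit, stood at 10.1, 10.1 and 10.0 in hIAPP_Tg and 9.9, 10.0 and 10.0 in wild-type islets (0.10), with the genotypes touching at 10.0.

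Complex II, succinate dehydrogenase, links the tricarboxylic acid cycle to the chain, and all 4 of its genes lay above 0. Sdhc, a membrane anchor with the heme, stood at 8.8 on all 3 hIAPP_Tg arrays and at 8.6 on all 3 wild-type arrays (0.20, SE 0.050, limma adjusted p = 0.503). No spread was seen within either genotype, so its SE came from the spread shared across all probe sets. The second Sdhc probe set, at a mean of 8.4, differed by 0. Sdha, the flavin subunit that oxidises succinate, stood at 10.6, 10.8 and 10.7 in hIAPP_Tg and 10.4, 10.7 and 10.5 in wild-type islets (0.17), and the genotypes overlapped. Sdhb, the iron-sulfur subunit, differed by 0.13 and Sdhd, the other anchor, by 0.10, both with overlap.

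Complex III, the ubiquinol to cytochrome c oxidoreductase, and cytochrome c lay above 0 in all 10 genes, 3 of them (30%) at an unadjusted p under 0.05, against 10.1% of the other bright genes. Cyc1, the heme-bearing cytochrome that hands electrons to cytochrome c, stood at 10.6, 10.8 and 10.7 in hIAPP_Tg and 10.5, 10.5 and 10.3 in wild-type islets (0.27, SE 0.086, limma adjusted p = 0.557). Cycs, the soluble carrier cytochrome c itself, which also triggers caspase activation when released, stood at 11.5, 11.8 and 11.7 in hIAPP_Tg and 11.4, 11.5 and 11.4 in wild-type islets (0.23, SE 0.090, limma adjusted p = 0.620). The genotypes were separated for Cyc1 and touched at 11.5 for Cycs. The other 2 probe sets of Cycs above the array median differed by 0.17 and 0.10, and the dim one by -0.17. Uqcrb, a small subunit near the quinone site, stood at 12.0, 12.1 and 12.0 in hIAPP_Tg and 11.7, 11.9 and 11.9 in wild-type islets (0.20, SE 0.078, limma adjusted p = 0.620). Its second probe set differed by 0.

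The remaining subunits of complex III showed smaller separation. Uqcrfs1, the Rieske iron-sulfur protein, stood at 10.9, 11.0 and 10.9 in hIAPP_Tg and 10.8, 10.9 and 10.7 in wild-type islets (0.13). Uqcrc1, a core protein of the matrix side, stood at 9.6 on all 3 hIAPP_Tg arrays and at 9.3, 9.6 and 9.3 on the wild-type arrays (0.20), so that wild_type replicate 2 equalled the hIAPP_Tg arrays. Uqcrc2, the partner core protein, stood at 11.3, 11.6 and 11.3 in hIAPP_Tg and 11.3, 11.3 and 11.2 in wild-type islets (0.13). In Uqcrc2 a single hIAPP_Tg array, replicate 5, carried the difference on this probe set, while its second probe set differed by 0.33 (limma adjusted p = 0.503).

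Complex IV, cytochrome c oxidase, was the most mixed. Its 17 genes here include Ndufa4, once assigned to complex I and now known as a complex IV subunit. Of these 17, 10 lay above 0, 1 at 0 and 6 below. At an unadjusted p under 0.05, 1 was higher (5.88%, against 5.02% of all named genes and 10.1% of the other bright ones). The 2 lower at that p, Cox8c and Cox7a2, were the only lower ones among all 96 members. Cox5a, a subunit of the matrix side, had the largest upward difference of all members, at 10.8, 11.2 and 11.1 in hIAPP_Tg and 10.6, 10.9 and 10.6 in wild-type islets (0.33, SE 0.13, limma adjusted p = 0.632). The genotypes overlapped because hIAPP_Tg replicate 4 lay under wild_type replicate 2, and the other Cox5a probe sets differed by 0.27 and 0.20. Cox4i1, the common form of the regulatory subunit 4, stood at 11.9 on all 3 hIAPP_Tg arrays and 11.8, 11.8 and 11.6 on the wild-type arrays (0.17, SE 0.073, limma adjusted p = 0.632), without overlap. Cox6a1, whose promoter holds the NRF1 palindrome shown above, stood at 13.3, 13.4 and 13.4 in hIAPP_Tg and 13.2, 13.3 and 13.1 in wild-type islets (0.17), and the genotypes touched at 13.3. Ndufa4 differed by 0.13, Cox6b1 by 0.10, Cox8a by 0.067 and Cox5b by 0, and all overlapped or touched between genotypes. Over the 6 probe sets of Cox5b the differences ran from -0.033 to 0.17. The 0.17 came from a probe set at a mean of 11.85, with separated genotypes (limma adjusted p = 0.620).

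The 6 genes of complex IV below 0 were the common subunits Cox7a2 and Cox7c and the forms of other tissues Cox8c, Cox8b, Cox6a2 and Cox7a1. The genotypes were separated for Cox7a2 and Cox8c and overlapped for the other 4, among them Cox7c (-0.13), read only by dim probe sets. Cox7a2, the form of subunit 7a found in most tissues, stood at 12.3, 12.3 and 12.2 in hIAPP_Tg and 12.4, 12.5 and 12.4 in wild-type islets (-0.17, SE 0.063, limma adjusted p = 0.620). Its second probe set, also bright, differed by 0.033, so the probe sets of Cox7a2 did not move together. Cox8c, a form known from testis, stood at 8.8, 8.7 and 9.0 in hIAPP_Tg and 9.4, 9.1 and 9.4 in wild-type islets (-0.47, SE 0.12, limma adjusted p = 0.503). That probe set ends in _x_at, and the other Cox8c probe set differed by 0.067.

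Like Cox8c, the other forms of muscle, lung and testis did not pass, and most of them were dim. Cox8b, a heart and skeletal muscle form, stood at 5.2, 4.7 and 4.9 in hIAPP_Tg and 5.2, 5.2 and 5.3 in wild-type islets (-0.30, SE 0.13, limma adjusted p = 0.632). All of these lie under the array median of 5.7, where detection is uncertain. Cox6a2, another muscle form, stood at 7.6, 6.6 and 7.2 in hIAPP_Tg and 7.6, 7.3 and 7.2 in wild-type islets (-0.23), with the low value on hIAPP_Tg replicate 5. Cox7a1, also of muscle, differed by -0.067, Cox4i2, the lung and hypoxia form, by 0.17 and Cox6b2, of testis, by 0.033. The mean over 10 skeletal muscle markers was 5.07 to 5.21 on the hIAPP_Tg arrays and 5.08 to 5.12 on the wild-type arrays, also under the array median. Over the 7 forms of other tissues, which include the dim Cox7b2 (0.13), the median was -0.067. Over the 10 remaining genes of the complex it was 0.083.

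ATP synthase couples proton flow through its membrane ring to catalysis in its head. Of 17 genes 15 lay above 0 and 2 below, with 3 higher (17.6%) and 0 lower at an unadjusted p under 0.05. Of the 17 genes 16 are bright, and 10.1% of the other bright genes were higher. All 5 genes of the catalytic head lay above 0. Atp5c1, the central stalk subunit gamma, stood at 11.5, 11.7 and 11.5 in hIAPP_Tg and 11.3, 11.4 and 11.4 in wild-type islets (0.20, SE 0.078, limma adjusted p = 0.620), without overlap. Atp5d, the delta subunit of the stalk, stood at 11.4, 11.6 and 11.5 in hIAPP_Tg and 11.4, 11.3 and 11.2 in wild-type islets (0.20, SE 0.082, limma adjusted p = 0.632), and its genotypes touched at 11.4. The catalytic subunit Atp5b differed by 0.10 and its partner Atp5a1 by 0.13, and both overlapped or touched.

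The genes of the membrane part of ATP synthase varied more. The proton-carrying ring is made of identical c subunits encoded by 3 genes, which differed by 0.27 for Atp5g1, 0.033 for Atp5g2 and 0.10 for Atp5g3. Atp5g1 stood at 10.7, 10.9 and 10.8 in hIAPP_Tg and 10.5, 10.7 and 10.4 in wild-type islets (0.27, SE 0.098, limma adjusted p = 0.620), with wild_type replicate 2 touching the hIAPP_Tg range. Atp5h, a subunit of the outer stalk whose promoter letters are shown above, stood at 12.3, 12.2 and 12.2 in hIAPP_Tg and at 12.1 on all 3 wild-type arrays (0.13, SE 0.057, limma adjusted p = 0.632), without overlap. The 3 probe sets of Atp5k, whose promoter holds the NRF1 palindrome, disagreed in sign, with 0.10 for the brightest and 0.13 and -0.13 for the others. Below 0 were Atp5l (-0.033), a subunit at the dimer interface, and Atp5mpl (-0.067), a small membrane subunit, and both overlapped.

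The 14 assembly factors and relatives that the prefixes take in had a median of 0.033, with 8 above 0 and 6 below, and 0 had an unadjusted limma p under 0.05. The Ndufaf and Sdhaf proteins help to build complexes I and II and are not part of the finished enzymes, while Cox7a2l and Ndufa4l2 are relatives of complex IV subunits. Ndufaf3, a complex I assembly factor, stood at 9.1, 9.4 and 9.2 in hIAPP_Tg and 9.0, 9.2 and 9.0 in wild-type islets (0.17). Sdhaf2, which attaches flavin to Sdha, differed by 0.17, Ndufaf8 by 0.10, and Ndufa4l2, a hypoxia-induced relative of Ndufa4, by 0.13. On the other side were Ndufaf2 (-0.10), Ndufaf7 (-0.067) and Cox7a2l (-0.033), which joins complexes III and IV. All of these overlapped or touched between genotypes.

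Other genes of the same pathway, outside the rule, were counted on lists. In limma 0 genes of these lists passed adjustment, and the counts that follow are at an unadjusted p under 0.05, where 5.02% of all named genes and 10.1% of the other bright genes were higher and 3.45% and 2.69% lower. The shares higher on the lists ran from 0% to 16.7%, each resting on 3 genes or fewer. Pyruvate dehydrogenase and tricarboxylic acid cycle genes (25 measured of 27 listed) had a median of 0.10 with 22 above 0, 3 higher and 0 lower. Mdh2, the mitochondrial malate dehydrogenase, averaged 12.43 in the islets of hIAPP_Tg mice (SD 0.12) and 12.10 in wild type (SD 0.10), a log2 difference of 0.33 (limma adjusted p = 0.503). Suclg2, of succinyl-CoA ligase, differed by 0.27 and Pdk2, a kinase that restrains pyruvate dehydrogenase, by -0.067. Among genes of other electron entry and of ubiquinone synthesis (18 of 22) the median was 0.067, with 1 higher and 1 lower. The higher gene was Etfb, of the electron transfer flavoprotein, with separated genotypes (0.23), and the lower was the choline dehydrogenase gene Chdh (-0.37), whose means of 4.33 in hIAPP_Tg and 4.70 in wild-type islets lay under the array median. In the same list Coq4 differed by 0.20 and Coq8a by -0.23.

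Assembly genes outside the prefixes gave similar small medians. They were 0.13 for complex I (12 of 14; 2 higher, 0 lower), 0.13 for complex III (6 of 7; 1 higher, 0 lower), 0.067 for complex IV (24 of 27; 1 higher, 0 lower) and 0.083 for ATP synthase (6 of 8; 0 in either direction). Timmdc1, a complex I assembly factor, had the largest of these differences, with means of 7.80 in hIAPP_Tg mice (SD 0.10) and 7.37 in wild type (SD 0.15), a log2 difference of 0.43 (limma adjusted p = 0.449). Uqcc2, of complex III assembly, differed by 0.20 without overlap and Uqcc3 by 0.10. Aifm1 differed by 0.20, Fastkd2, which acts on mitochondrial RNA, by 0.20 and Pet100 by 0.17. Among the genes of ATP synthase, Fmc1 differed by 0.17 and the inhibitor Atpif1 by 0.13. Of these lists 10 genes lay below 0, at -0.10 to -0.033. Among them were Ecsit and Tmem126b (-0.10 each), Lyrm7, Cox10, Coa6 and Tmem242 (-0.067 each).

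The genes of membrane exchange (17 of 19) had a median of 0.067 and 0 in either direction, with Slc25a5, an adenine nucleotide translocator, at 0.27, the channel Vdac2 at 0.13, and Micu2 and Slc25a13 at -0.067 each. Mitochondrial chaperones and import genes (24 of 27) had a median of 0.12 with 22 above 0 and 2 higher, Timm17a (0.27) and Timm13 (0.23), while Immt stood at -0.067 and Timm9 at -0.033. Genes of mitochondrial DNA expression (21 of 25) had a median of -0.033 with 9 above 0 and 1 higher, Mtif3 (0.20). Gfm1 differed by 0.17, Tfb1m by -0.17 and Polg, the mitochondrial DNA polymerase, by -0.10. Regulators of respiratory genes (18 of 18) had a median of 0.033 and 2 higher. The nuclear receptor gene Esrrg averaged 7.97 in hIAPP_Tg mice (SD 0.058) and 7.73 in wild type (SD 0.058), a log2 difference of 0.23 (limma adjusted p = 0.503), and Myc differed by 0.37. Nrf1 itself differed by -0.067, and Gabpb2, a partner of GABPA, by -0.17. The members that hold the NRF1 palindrome differed by 0.033 to 0.20 and had a median of 0.10, the same as the members without it. The median was 0.13 with the YY1 letters and 0.10 without them, and 0.067 with the GABPA letters and 0.10 without them, and none of these was tested.

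**Figure D5:**
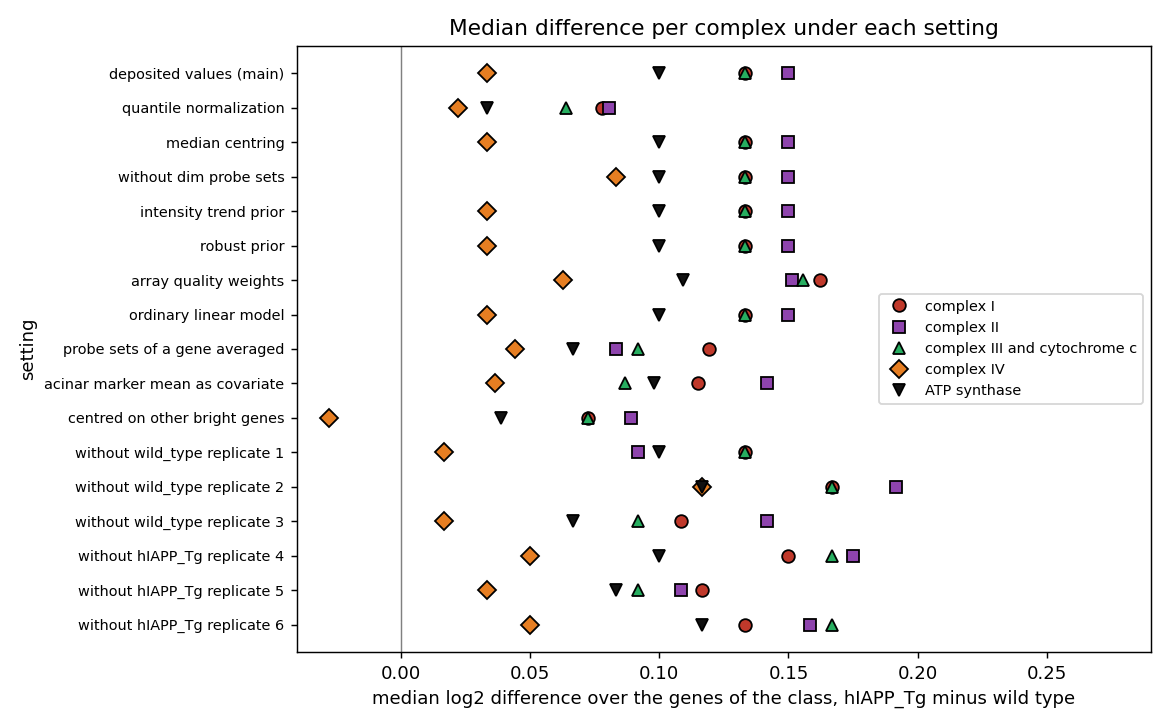
Median log2 difference (hIAPP_Tg minus wild type, horizontal axis) over the genes of each complex under the deposited values and each alternative setting (vertical axis), with 1 symbol per complex. Complexes I, II, III and ATP synthase lie above 0 in all settings drawn, from 0.033 to 0.19, and complex IV lies between -0.028 and 0.12.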

How the data were processed

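The authors deposited 1 log2 value for each of 45101 probe sets on 6 arrays. The submitters' processing notes name RMA and the affy package, with no version. The values run from 2.9 to 15.1 in steps of 0.1, with a median of 5.7 on every array. RMA gives all arrays a like distribution and compresses differences at both ends. Precision is limited by having 3 arrays per genotype. From these values, 64 control probe sets were left out and 45037 were fitted with limma 3.58.1 in R 4.3.3 in a two-sided comparison of hIAPP_Tg with wild type without covariates. The p-values were adjusted over all of them by Benjamini-Hochberg. Gene symbols came from the platform annotation, and the lookup by Entrez number in RefSeq GRCm38.p6 changed 0 of them. Some genes are not analysed here. The fit was tested on simulated data.

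The members, lists, motifs and tests were chosen with earlier results of these data known. Always named was a fixed list of catalytic, heme, flavin and some other subunits, with most of the tissue forms of complex IV. To these were added, per class, the 4 higher and 2 lower genes with the smallest p, and per list up to 2 in each direction. Further genes in the text were chosen after their values were seen. Lists are described by counts and medians without a test. Ndufa4 was counted with complex IV. Alternatives were quantile normalization, median centring, a filter on dim probe sets, 3 other priors or weights, an unmoderated test, averaged probe sets, the acinar mean as a covariate and leaving out each array. Centring on other bright genes was added after seeing the data. Plots were made in Python 3.11.15 (matplotlib 3.10.9).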

Additional observations from a re-analysis of the deposited data

How the results depend on the processing

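Of 96 genes, 0 passed an adjusted p of 0.05 under the deposited values and each of the 16 alternatives. The filter on dim probe sets left 90 of the 96 to test. The 19 genes higher at an unadjusted p under 0.05 became 5 with quantile normalization (5.21%, against 4.05% of all named genes). With the ordinary linear model they became 11 (11.5%, against 4.09%), and with averaged probe sets 11 (11.5%, against 4.88%). The acinar covariate gave 5 (5.21%, against 4.41%). Centring on other bright genes (added after seeing the data) gave 3 (3.12%, against 2.44%). The share rose to 27.1% with array quality weights (against 7.91%) and to 22.9% with an intensity trend prior (against 4.9%). It was 17.7% with a robust prior (against 5.06%) and 17.8% without dim probe sets (against 6.13%). When 1 array was left out, 9 (9.38%, against 3.91% or 5.05%) to 31 (32.3%, against 7.09%) were higher. The 2 lower genes became 1 with averaged probe sets, 1 with the acinar covariate, and 1 to 4 when 1 array was left out. With quantile normalization the median was 0.047 over all members, of which 67 lay above 0 and 25 below. By class it was 0.078 for complex I, 0.064 for complex III with cytochrome c and 0.033 for ATP synthase. Centring on other bright genes, which moved the median of all named genes to -0.061, gave 0.039 over all members, 0.072 for complex I, 0.039 for ATP synthase and -0.028 for complex IV. Leaving out 1 array gave medians of 0.083 to 0.15 over all members and 0.017 to 0.12 for complex IV, the highest without wild_type replicate 2. Why the values moved between settings was not tested. Of the 46 named genes, 8 changed sign in at least 1 setting, and the largest of these differences was 0.23 in size. No paired analysis was possible because the genotypes share no replicate numbers. The labels number the mice and do not give litters or batches, so the p-values measure the spread between these arrays. Signal over background is unknown, and 7 members lay at or under 5.7 on at least 1 array.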

Other observations

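Some respiratory chain transcripts are read only, or more brightly, by probe sets that the annotation gives several symbols, which the rule left out. Of 10 such probe sets, 0 passed in limma (1 at an unadjusted p under 0.05). The probe set of Ndufs6 and Ndufs6b stood at 10.5, 10.6 and 10.6 in hIAPP_Tg and 10.3, 10.5 and 10.3 in wild-type islets (log2 difference 0.20, limma adjusted p = 0.620). The pair named for Ndufb4 and its copies averaged 10.13 and 10.37 in hIAPP_Tg mice and 10.17 and 10.33 in wild type, with differences of -0.033 and 0.033, whereas the single-symbol probe set that stood for Ndufb4 above averaged 4.47 in hIAPP_Tg mice and 4.27 in wild type, a difference of 0.20. The probe set of Ndufs5 and its pseudogene differed by -0.10, against 0.033 for the dimmer single-symbol one.

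A subunit encoded in mitochondrial DNA could be set beside the nuclear ones through 1 probe set, chosen after its values were seen. ND5, a proton-pumping subunit of complex I, stood at 13.1, 12.9 and 13.0 in hIAPP_Tg and 13.3, 12.9 and 13.1 in wild-type islets (-0.10, SE 0.11, limma adjusted p = 0.830), and the genotypes overlapped.

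Probe sets of a member often disagreed by as much as the genotypes differed. Of the 96 genes 54 had several probe sets. In Ndufab1, the mitochondrial acyl carrier protein that is also a complex I subunit, the brightest probe set differed by 0.10 and a dim one by -0.30 (limma adjusted p = 0.419), the smallest adjusted p of the 190 probe sets. Cox7c, a common subunit of complex IV, was read by 2 single-symbol probe sets with means under the array median, which differed by -0.13 and -0.10.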
